A study of Gallus gallus with 24 samples.

Results

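The monocarboxylate transporters move lactate, pyruvate and related small acids across the plasma membrane, and in the retinal pigment epithelium (RPE) they carry the lactate that photoreceptors release through to the blood side. The genes described here are SLC16A1, SLC16A3, SLC16A8, SLC16A9 and SLC16A12, which encode MCT1, MCT4, MCT3, MCT9 and MCT12, together with BSG, which encodes basigin. MCT1, MCT3 and MCT4 transport lactate together with a proton, and each needs basigin, a glycoprotein of the immunoglobulin superfamily, to reach the cell surface. MCT1 lies in the apical membrane of the RPE and MCT3 in its basolateral membrane, whereas MCT4 is best known as the lactate exporter of glycolytic cells. The substrates of the other two are different, since human MCT9 has been linked to carnitine and human MCT12 transports creatine.

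Members were taken as every probe set whose platform annotation gave one of these 6 symbols, which found 15 of the 38439 probe sets on the chicken array that were not controls (6 of the 13009 genes named by them). SLC16A1 had 4 of them, SLC16A12 and BSG had 3 each, SLC16A3 and SLC16A9 had 2 each, and SLC16A8 had 1. Current gene records give SLC16A3 as an older name of chicken SLC16A8. Probe sets were taken by symbol alone, and the gene identifier given for each symbol matched that of its current record. Sequences of these genes were not used here.

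The cultures were RPE of White Leghorn chick embryos at E7 or E14, the embryonic day of isolation, grown on porous filters and harvested on the ninth day. The apical chamber held the serum-free medium SF3 or rcSF3, which was SF3 conditioned by neural retinas of E14 embryos, and the basal chamber of every culture held SF2, which is SF3 with bovine pituitary extract. Fetal bovine serum was either left out or added to the basal chamber. The 2 ages and 4 media (SF3, SF3 with serum, rcSF3, and rcSF3 with serum) gave 8 groups of 3 arrays, 24 in all, and each array held the RNA of several filters of 1 plating day. The code for the last of these media was read as rcSF3 with serum because no other medium of the study was left without a code. The p-values therefore measure the spread between such pooled repeats, and the factors that retinas release into rcSF3 were not separated.

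Values are the deposited probe set signals in arbitrary units, scaled to one target per array, and their median per array ran from 89.3 to 121. A probe set was tested when its mean signal at that age, or at either age for comparisons between ages, was at least 100. This kept 13 members at E7, 14 at E14 and 14 for comparisons between ages. Differences are log2 ratios with their standard errors (SE) from limma, and "called" means an adjusted p below 0.05 over all probe sets tested. All 13 listed RPE markers, RPE65 and BEST1 among them, had signals above 100 in each of the 8 groups. Of 5 endothelial markers PECAM1 had group means of 166 to 318, and CDH5, KDR, TIE1 and TEK of at most 69.0. Of 4 photoreceptor genes GNB3 reached a group mean of 1852 and ARR3 one of 258, whereas GNAT1 and PDE6B stayed at or under 63.9.

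The widest changes among the members were in SLC16A9 and SLC16A12, and they went in opposite directions with serum. SLC16A9 rose with rcSF3 alone and with serum alone at both ages, but at E14 neither was called when added to the other. Its group means spanned 2.53 log2 units over the 8 groups on its brighter probe set and 2.87 on the other. SLC16A12 fell with serum at both ages, with spans of 1.25 and 1.53 on its dimmer probe sets. In E7 cultures rcSF3 also raised SLC16A1 and lowered SLC16A3. The probe set of SLC16A8 and the bright probe sets of BSG passed the test only for serum, and the size was near that of other probe sets of their brightness.

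In E7 cultures without serum, rcSF3 changed 6 of the 13 tested probe sets, 5 of them upward, against 27.5% of all probe sets tested. These calls came from 4 genes. The median difference was 0.25 for the members and -0.02 for all probe sets. With serum present, 6 of 13, from 3 genes, rose and none fell, against a background of 21.7%. In E14 cultures only the SLC16A9 probe sets rose with rcSF3, which made 2 of 14 called against 9.86%. None of the 14 was called by limma when rcSF3 was added to E14 cultures with serum, where 2.91% of all probe sets were called. There 2 members had an unadjusted p under 0.05, and none was called by an unmoderated analysis of variance. With the replicate number as a block over the 4 media, the probe sets called at E14 went from 1855 to 1908 without serum and from 548 to 608 with serum. With same-numbered arrays blocked within each serum state, a fit added after seeing the data, they went to 3021 and 1517, and neither fit gained or lost a member.

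Serum added to SF3 changed 5 of 13 probe sets at E7 (1 up, 4 down) and 5 of 14 at E14 (2 up, 3 down), with backgrounds of 39.2% and 24.3%. The shares of members were 38.5% and 35.7%. The calls came from 3 genes at E7 and from 2 genes only at E14, SLC16A9 and SLC16A12. Serum added to rcSF3 changed 6 of 13 at E7 (1 up, 5 down, background 31.7%) and 9 of 14 at E14 (1 up, 8 down, background 23.4%). These calls came from 4 genes at each age, and probe sets of the same gene are not independent. Among all probe sets with a mean signal of at least 20000, where SLC16A8 and part of SLC16A1 and BSG lie, 78.0% and 76.4% were called. The median at E14 was -0.26 for the members, -0.0017 for all probe sets and -0.31 for those bright ones. The interaction term, which asks whether the response to rcSF3 differed with and without serum, was called by limma for no member at E7 (background 2.24%) and for both probe sets of SLC16A9 at E14 (background 0.632%). At E7 1 member, SLC16A3 on Gga.3555.1.S1_at, had an unadjusted p under 0.05, and the unmoderated analysis of variance called none.

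**Figure D1:**
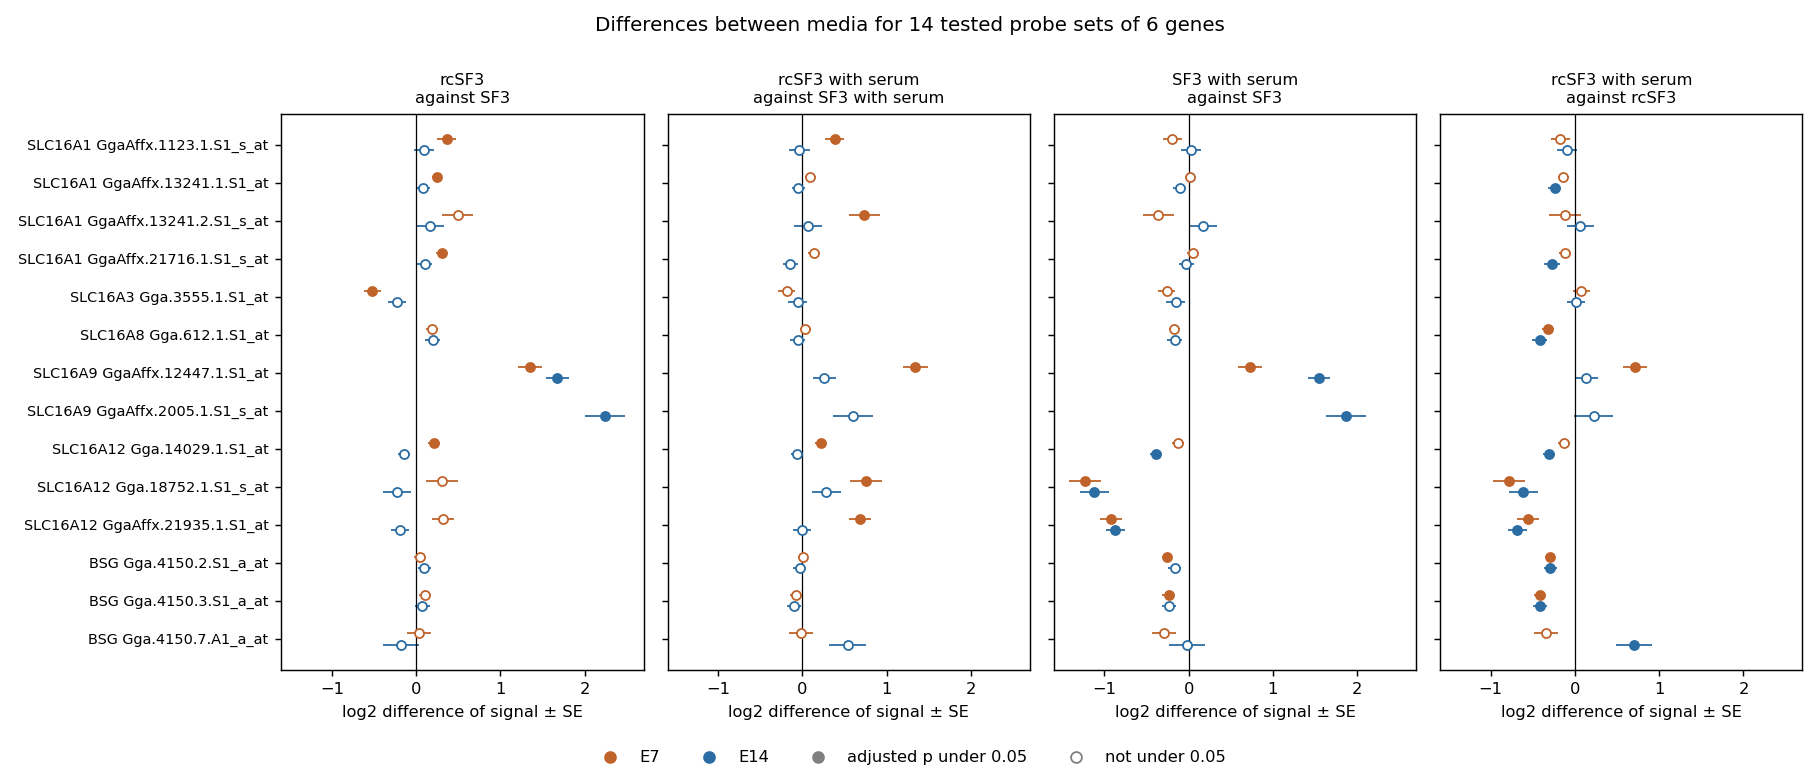
Log2 differences between media (horizontal axis, with SE) for the 14 tested probe sets (vertical axis), with E7 in orange, E14 in blue, filled points called and open points not called. SLC16A9 lies far to the right for rcSF3 against SF3 at both ages, SLC16A12 lies to the left in both serum panels, and most other points lie within 0.5 of zero.

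Markers of mesenchymal cells moved with the same media. All 7 listed fibroblast genes had a symbol on the array, and their summed signal in E7 cultures ran over 5329.6 to 8885 in SF3, 11699.7 to 19656 with serum, 1609.6 to 3523 in rcSF3 and 5535 to 7938 in rcSF3 with serum. In E14 cultures the ranges were 5274 to 6947, 12754 to 12949, 2226 to 3575 and 5336 to 11682 in the same order. LUM and PDGFRA of that list stayed near background, with highest group means of 102 and 64.9. The summed signal of 7 glial and neuronal genes was 21939.8 to 25604 in E7 SF3 and 12641 to 13514 in E7 rcSF3. Among them the group means were 253 to 14067 for FABP7, 7175 to 9570 for GLUL and 843 to 2925 for SNAP25. SLC1A3, STMN2 and TUBB3 stayed near background, with highest group means of 40.9, 125 and 149. The photoreceptor list, of which 4 of 8 genes had a symbol, summed to 1737 to 2287 in E7 SF3, 782 to 1164 with serum and 451 to 537 in rcSF3, and to 359 to 1134 in E14 SF3. That sum followed mainly GNB3, with group means of 60.6 to 1852, against 129 to 258 for ARR3 and at most 63.9 for the others. The summed signal of the 13 RPE markers moved as well. In E7 cultures it ran over 201985 to 219885 in SF3, 193004 to 206003 with serum, 240274 to 246093 in rcSF3 and 202271 to 224258 with both. At E14 the ranges were 221223 to 240085, 196594 to 220527, 252988 to 263998 and 193738 to 223389 in that order. Some of these markers, such as RLBP1 and DCT, are bright. The part of these cell types in the changes of the transporters was not tested. In RNA from whole cultures fewer cells of a type cannot be told apart from less RNA per cell.

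SLC16A9 had the lowest signal in E7 cultures in SF3 and was higher with either stimulus. Probe set GgaAffx.12447.1.S1_at read 219, 195 and 173 in the 3 E7 arrays in SF3 and 594, 428 and 483 in rcSF3. With serum in SF3 it read 294, 339 and 336, and with both stimuli 779, 888 and 784. All 4 E7 groups were separate from one another, and the cultures with both stimuli were the highest. The difference for rcSF3 was 1.35 (SE 0.14, adjusted p = 7.7e-06) without serum and 1.34 (SE 0.14, adjusted p = 2.6e-05) with serum. Serum added 0.73 (SE 0.14, adjusted p = 0.0012) to SF3 and 0.71 (SE 0.14, adjusted p = 0.0019) to rcSF3. The interaction at E7 was -0.01 (SE 0.20, adjusted p = 0.98), and no difference between the increments was called.

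In E14 cultures the same probe set reached nearly its full level with either stimulus alone. It read 328, 292 and 344 in SF3, 1026, 949 and 852 with serum, 1138, 1041 and 909.7 in rcSF3 and 1343, 1059 and 1007 with both. Every array with a stimulus was above every array in SF3, and the 3 stimulated groups overlapped each other. Serum alone gave 1.55 (SE 0.13, adjusted p = 4e-06), or a 2.93-fold difference, and rcSF3 alone 1.68 (SE 0.13, adjusted p = 9e-06). Adding rcSF3 to serum gave 0.26 (SE 0.13, adjusted p = 0.3), and adding serum to rcSF3 gave 0.14 (SE 0.13, adjusted p = 0.49), neither of which was called. The interaction was -1.41 (SE 0.19, adjusted p = 0.0085), which is how far the cultures with both stimuli lay from the sum of the single increments.

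**Figure D2:**
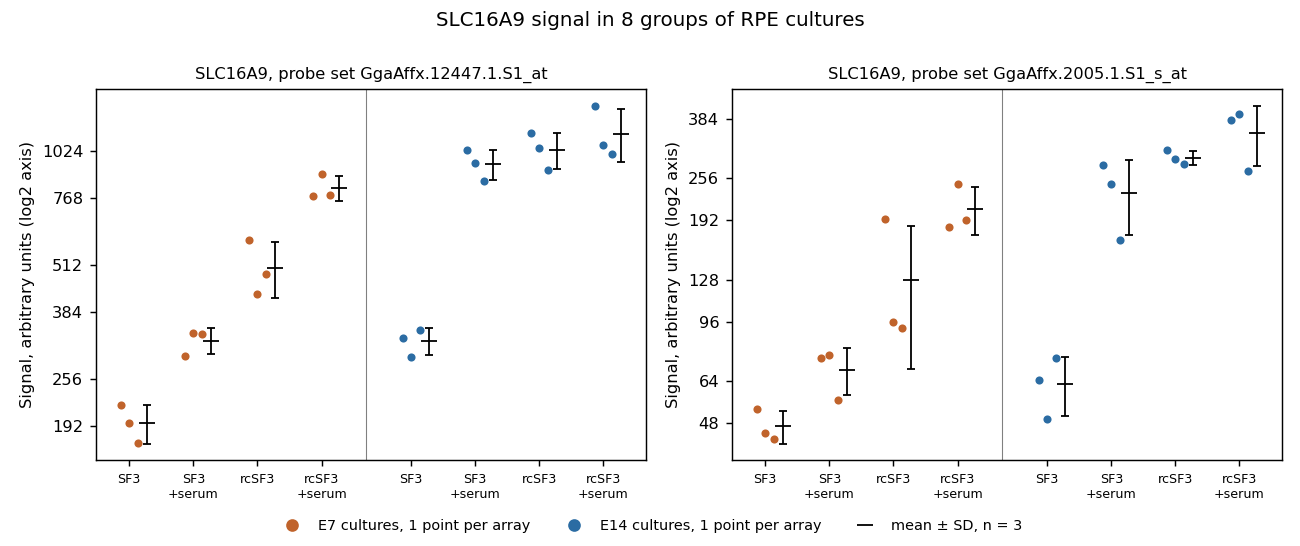
Signal of both SLC16A9 probe sets (vertical log2 axis, arbitrary units) in the 4 media at E7 (orange) and E14 (blue), 1 point per array, with the group mean and SD (n = 3) in black. The E7 points climb in 4 steps, whereas the E14 points of GgaAffx.12447.1.S1_at rise from 321 ± 26.4 in SF3 to between 942 ± 87.4 and 1136 ± 181 in the other media.

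The second probe set of SLC16A9, GgaAffx.2005.1.S1_s_at, was dimmer and gave the same order of the 8 group means. In E14 cultures it read 64.7, 49.5 and 74.7 in SF3, 281, 246 and 167 with serum, 309, 292 and 282 in rcSF3 and 381, 397 and 268 with both. Again each array with a stimulus exceeded those in SF3. The differences were 2.24 (SE 0.24, adjusted p = 5.9e-05) for rcSF3 and 1.86 (SE 0.24, adjusted p = 7.7e-05) for serum, and the interaction was -1.64 (SE 0.33, adjusted p = 0.042). That last call was lost in 13 of 19 other settings, among them leaving out any of 10 of the 12 arrays, the 2 others being replicates 3 of SF3 and of SF3 with serum, with an adjusted p of up to 0.16 over all of them. At E14 this probe set passed the filter through the stimulated groups, since its SF3 arrays lay below 100. Over the other settings the lowest differences at E14 were 1.56 for rcSF3 and 1.18 for serum. At E7 the mean of this probe set was below 100 and it was not tested. Its E7 arrays read 53.0, 45.0 and 43.1 in SF3, 74.9, 76.4 and 56.4 with serum, 194, 96.0 and 92.0 in rcSF3 and 184, 246 and 192 with both, and those in rcSF3 were above those in SF3 without overlap.

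Both ages could be set side by side for SLC16A9 in each medium. On GgaAffx.12447.1.S1_at, E14 exceeded E7 by 0.72 (SE 0.14, adjusted p = 0.00024) in SF3, 1.54 (SE 0.14, adjusted p = 2.4e-08) in SF3 with serum, 1.04 (SE 0.14, adjusted p = 6.7e-06) in rcSF3 and 0.47 (SE 0.14, adjusted p = 0.019) in rcSF3 with serum. All E14 arrays were above all E7 arrays of the same medium. The call in rcSF3 with serum was lost without E7 replicate 1 or 3 or E14 replicate 1 of that medium, with an adjusted p of up to 0.11. In the order of the 8 groups, E14 in SF3 (321 ± 26.4) and E7 with serum (323 ± 25.2) did not differ beyond their spread, nor did the 3 stimulated E14 groups, whose values ran from 852 to 1343.

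The responses of SLC16A9 also differed between the ages. The increment from serum in SF3 was larger at E14 by 0.83 (SE 0.19, adjusted p = 0.019), against 3.7% of all probe sets called for that difference. The increment from rcSF3 with serum present was smaller at E14, at -1.08 (SE 0.19, adjusted p = 0.0059), where 1.58% were called. For rcSF3 without serum the difference between ages was 0.32 (SE 0.19, adjusted p = 0.38) and was not called. Of the 14 tested members, SLC16A9 was the one called in the first and in the second of these comparisons. For the second, same-numbered arrays of the E14 media with serum deviated together but those at E7 did not, and with the block within each serum state 4 members were called. Those gained were SLC16A12 on GgaAffx.21935.1.S1_at at -0.69 (adjusted p = 0.00081, 0.052 without the block) and on Gga.14029.1.S1_at at -0.28 (adjusted p = 0.041, 0.15 without), and SLC16A1 on GgaAffx.13241.2.S1_s_at at -0.67 (adjusted p = 0.011, 0.24 without). The block over the 4 media called none of these (adjusted p = 0.059, 0.15 and 0.2). The second probe set gave 1.31 (SE 0.39, adjusted p = 0.059) for serum and -0.98 (SE 0.39, adjusted p = 0.21) for rcSF3 with serum, in the same directions but short of the threshold.

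SLC16A12 was lower with serum on its dimmer probe sets at both ages. Probe set GgaAffx.21935.1.S1_at read 2377, 3058 and 2593 in E7 cultures in SF3 and 1656, 1346 and 1254 with serum. At E14 it read 3487, 2912 and 3717 in SF3 and 1721, 1931 and 1869 with serum. The groups with and without serum did not overlap at either age. Serum changed it by -0.92 (SE 0.13, adjusted p = 8.8e-05) at E7 and -0.87 (SE 0.11, adjusted p = 7e-05) at E14, or to 0.529 and 0.548 of the level in SF3. The difference between the ages in this response was 0.05 (SE 0.18, adjusted p = 0.91).

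In rcSF3 the same probe set read 3032, 3834 and 3124 at E7 and 3023, 2640.0 and 3179 at E14, and serum brought it to 2484, 2386 and 1948 and 1639, 2021 and 1853. These groups were again separate, differing by -0.55 (SE 0.13, adjusted p = 0.0054) at E7 and by -0.68 (SE 0.11, adjusted p = 0.00052) at E14. Probe set Gga.18752.1.S1_s_at followed the same course. It read 1551, 1784 and 1624 in E7 SF3 against 857, 675 and 601 with serum, and 2013, 1615 and 1970.0 against 750.1, 811 and 1021 at E14. Its differences with serum were -1.23 (adjusted p = 0.00018) in SF3 and -0.78 (adjusted p = 0.0067) in rcSF3 at E7, and -1.12 (adjusted p = 0.00034) and -0.61 (adjusted p = 0.018) at E14, all without overlap. The call for E14 in rcSF3 was lost without replicate 1 or 3 of rcSF3 with serum or replicate 3 of rcSF3, with an adjusted p of up to 0.093.

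The brightest SLC16A12 probe set, Gga.14029.1.S1_at, changed less. It read 6687, 7385 and 6958 in E7 SF3 and 6611, 6469 and 6135 with serum, a difference of -0.13 (SE 0.07, adjusted p = 0.17) that was not called although the groups were separate. At E14 it read 8999, 8137 and 9395 in SF3 and 6737, 6623 and 6863 with serum, and fell by 0.39 on the log2 scale (SE 0.07, adjusted p = 0.00095). Serum added to rcSF3 gave -0.13 (adjusted p = 0.19) at E7 and -0.31 (adjusted p = 0.005) at E14. The 3 probe sets therefore gave one direction and different sizes, from -1.23 to -0.13 with serum at E7.

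**Figure D3:**
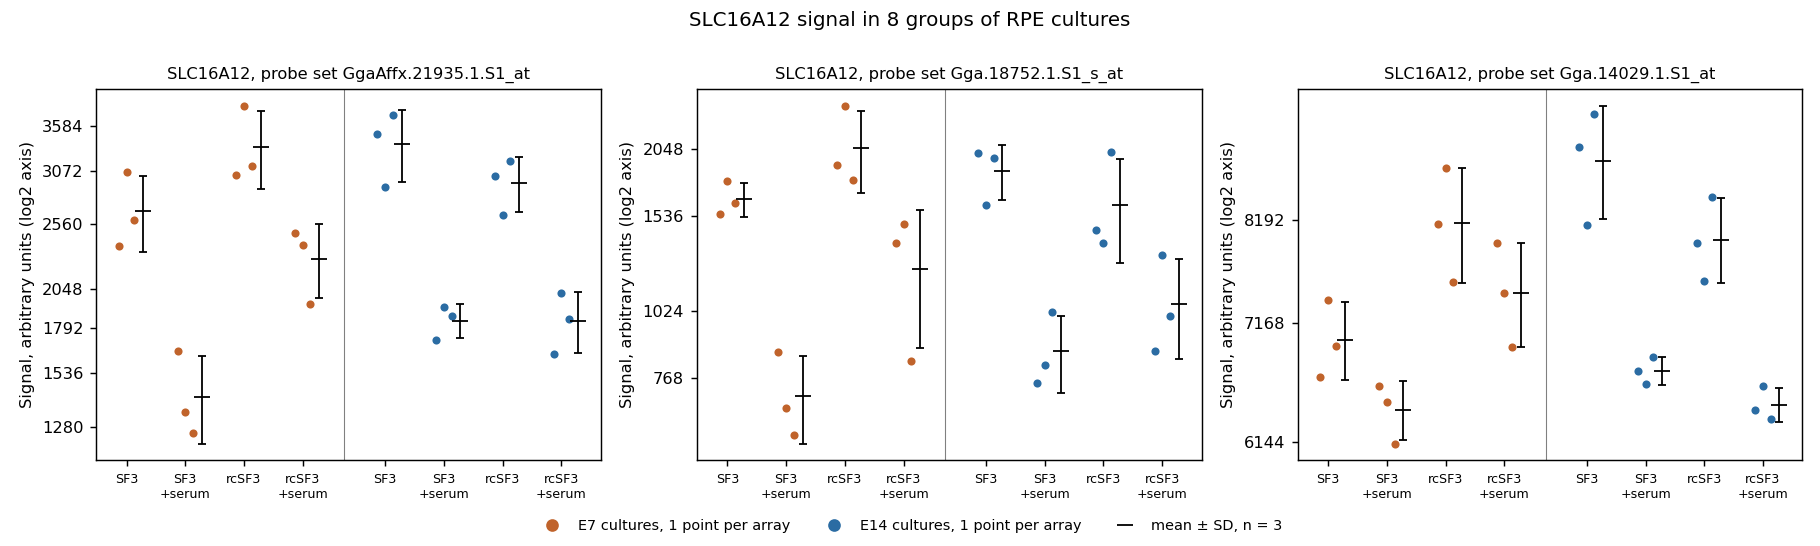
Signal of the 3 SLC16A12 probe sets (vertical log2 axis, arbitrary units) in the 4 media at E7 (orange) and E14 (blue), 1 point per array, with the group mean and SD (n = 3) in black. The groups with serum are the lower ones in the left panel, with E14 means of 1840.3 ± 108 and 1838 ± 191 against 3372 ± 415 in SF3.

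The response of SLC16A12 to rcSF3 was called in E7 cultures and in none at E14. With serum at E7, rcSF3 raised GgaAffx.21935.1.S1_at by 0.68 (SE 0.13, adjusted p = 0.0021), Gga.18752.1.S1_s_at by 0.76 (SE 0.19, adjusted p = 0.012) and Gga.14029.1.S1_at by 0.22 (SE 0.07, adjusted p = 0.045). The first of these held when any 1 array was left out. The second was lost without E7 SF3 with serum replicate 3 or E7 rcSF3 with serum replicate 1 or 2 (adjusted p up to 0.063), and that of Gga.14029.1.S1_at in all leave-out fits but that without rcSF3 with serum replicate 3 (up to 0.19). Without serum at E7 the differences were 0.32 (adjusted p = 0.089), 0.30 (adjusted p = 0.27) and 0.22 (adjusted p = 0.037). Of these the last was called, though not without E7 SF3 replicate 1 or 3 or E7 rcSF3 replicate 1 or 2 (adjusted p up to 0.15). Both E7 calls of Gga.14029.1.S1_at were also lost with quantile normalization, no filter and the unmoderated analysis of variance. The last of these settings also lost the call of Gga.18752.1.S1_s_at with serum. At E14 rcSF3 gave -0.19, -0.23 and -0.15 without serum, none of them called.

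The difference between the ages in the response to rcSF3 without serum was called for Gga.14029.1.S1_at at -0.36 (SE 0.10, adjusted p = 0.026), 1 of 14 members against 5.36% of all probe sets (1046, 1104 with the replicate number as a block over the media, and 1906 with the block within each serum state). It was lost in 8 of 19 other settings, 7 of which left out 1 array (E7 SF3 replicate 1 or 3, E7 rcSF3 replicate 2, E14 SF3 replicate 1 or 3, or E14 rcSF3 replicate 1 or 2), with an adjusted p of up to 0.079. The other SLC16A12 probe sets gave -0.51 (adjusted p = 0.11) and -0.53 (adjusted p = 0.31). Same-numbered arrays of SF3 and rcSF3 deviated together at both ages, and with the block within each serum state GgaAffx.21935.1.S1_at was called as well (adjusted p = 0.002), as it was for rcSF3 against SF3 at E7 (adjusted p = 0.0052). Blocking same-numbered arrays over all 4 media called it in neither (adjusted p = 0.12 and 0.06).

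SLC16A1, the apical lactate carrier, was higher in rcSF3 than in SF3 in E7 cultures. Probe set GgaAffx.21716.1.S1_s_at read 20986, 19332 and 19036 in SF3 and 24666, 25570.3 and 23024 in rcSF3, and GgaAffx.13241.1.S1_at read 22565, 20568 and 19733 in SF3 and 26038, 24511 and 24139.9 in rcSF3. In both, all 3 rcSF3 arrays were above all 3 SF3 arrays. The first differed by 0.30 (SE 0.07, adjusted p = 0.0052) and the second by 0.25 (SE 0.06, adjusted p = 0.0077), and both were called when any 1 array was left out. Probe set GgaAffx.1123.1.S1_s_at read 12889, 12814 and 11288 in SF3 and 15432, 17632 and 14515 in rcSF3 and gave 0.36 (SE 0.11, adjusted p = 0.026), which was lost without E7 SF3 replicate 3 or E7 rcSF3 replicate 2 (adjusted p up to 0.11). That call was also lost with quantile normalization, no filter and the unmoderated analysis of variance. The fourth, GgaAffx.13241.2.S1_s_at, read 6688, 7376 and 6206 in SF3 and 8913, 11349 and 8419.9 in rcSF3, again without overlap. Its difference of 0.49 (SE 0.18, adjusted p = 0.061) was not called, except with the replicate number as a block (adjusted p = 0.013 over the 4 media and 0.00091 within each serum state).

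With serum present the SLC16A1 probe sets were split. GgaAffx.13241.2.S1_s_at read 6748, 5042 and 4245 in SF3 with serum and 10461, 10118 and 6306 in rcSF3 with serum, which overlapped. GgaAffx.1123.1.S1_s_at gave 0.38 (SE 0.11, adjusted p = 0.024) and GgaAffx.13241.2.S1_s_at gave 0.74 (SE 0.18, adjusted p = 0.011) for rcSF3 at E7, while GgaAffx.13241.1.S1_at gave 0.10 (adjusted p = 0.31) and GgaAffx.21716.1.S1_s_at gave 0.14 (adjusted p = 0.2). Both calls were lost without E7 SF3 with serum replicate 3 or E7 rcSF3 with serum replicate 1 or 2, with adjusted p up to 0.11 and 0.062. The unmoderated analysis of variance called neither, and with no filter that of GgaAffx.1123.1.S1_s_at was lost as well. At E14 the 4 differences for rcSF3 without serum lay between 0.09 and 0.17 and none was called. The test of the difference between the ages gave -0.20 to -0.32 on GgaAffx.21716.1.S1_s_at, GgaAffx.1123.1.S1_s_at and GgaAffx.13241.2.S1_s_at and -0.16 on GgaAffx.13241.1.S1_at, with no call (each adjusted p at least 0.39).

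SLC16A3, the exporter of glycolytic cells, moved the other way. Probe set Gga.3555.1.S1_at read 5672, 7053 and 5761 in E7 SF3 and 4387, 4849 and 3662 in E7 rcSF3, with every rcSF3 array below every SF3 array. It fell by 0.52 on the log2 scale (SE 0.10, adjusted p = 0.0013), and the call held in all 14 other settings. The remaining differences of this probe set between media were smaller. They were -0.19 (adjusted p = 0.21) for rcSF3 with serum at E7, -0.26 (adjusted p = 0.054) for serum at E7 and -0.23 (adjusted p = 0.23) for rcSF3 at E14, and the test of rcSF3 between ages gave 0.30 (SE 0.16, adjusted p = 0.32). In SF3 it read 4215, 4829.7 and 5023 at E14, below each E7 array, with a difference of -0.39 (SE 0.11, adjusted p = 0.0084) that was lost without E7 SF3 replicate 2 or E14 SF3 replicate 1 (adjusted p up to 0.07). The second SLC16A3 probe set, Gga.3555.1.S2_at, lay between 2.89 and 26.5 on the 24 arrays with a median of 6.68, and was not tested.

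SLC16A8, the basolateral carrier and a marker of the RPE, had its lowest group means in the 4 groups with serum. In E7 cultures Gga.612.1.S1_at read 27326, 27074 and 25158 in rcSF3 and 22276, 21421 and 19988 in rcSF3 with serum, and at E14 24478, 26135 and 27099 and 17427, 19421 and 21459. These groups did not overlap at either age. With serum added to rcSF3 the difference was -0.32 (SE 0.07, adjusted p = 0.0027) at E7 and -0.42 (SE 0.09, adjusted p = 0.0038) at E14. In SF3 serum gave -0.17 (adjusted p = 0.063) and -0.17 (adjusted p = 0.2), neither called. All rcSF3 arrays were above the SF3 arrays at E7, with SF3 at 23327, 22306 and 24167, but the difference of 0.19 (SE 0.07, adjusted p = 0.053) missed the threshold, and at E14 it was 0.20 (adjusted p = 0.19).

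BSG showed the same course on its bright probe sets. Gga.4150.3.S1_a_at read 34296, 34378 and 36241 in E7 SF3, 27003, 32382 and 29814 with serum, 41092, 36129.9 and 35716 in rcSF3 and 29900.2, 28187 and 26669 with both. Each array with serum was below each array without it. Serum gave -0.24 (SE 0.07, adjusted p = 0.018) in SF3 and -0.41 (SE 0.07, adjusted p = 0.00071) in rcSF3, and for Gga.4150.2.S1_a_at the values were -0.25 (SE 0.06, adjusted p = 0.0042) in SF3 and -0.29 (SE 0.06, adjusted p = 0.0024) in rcSF3. At E14 serum added to rcSF3 gave -0.41 (adjusted p = 0.0031) and -0.29 (adjusted p = 0.015), and serum in SF3 -0.23 (adjusted p = 0.06) and -0.16 (adjusted p = 0.15) without a call, though all arrays with serum were lower in each case. Of these calls, that of Gga.4150.3.S1_a_at in SF3 at E7 was lost without SF3 replicate 3 or SF3 with serum replicate 1 (adjusted p up to 0.079), and that of Gga.4150.2.S1_a_at in rcSF3 at E14 without rcSF3 replicate 3 or rcSF3 with serum replicate 1 (up to 0.068). Neither probe set was called for rcSF3 at either age or for any comparison of the ages.

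**Figure D4:**
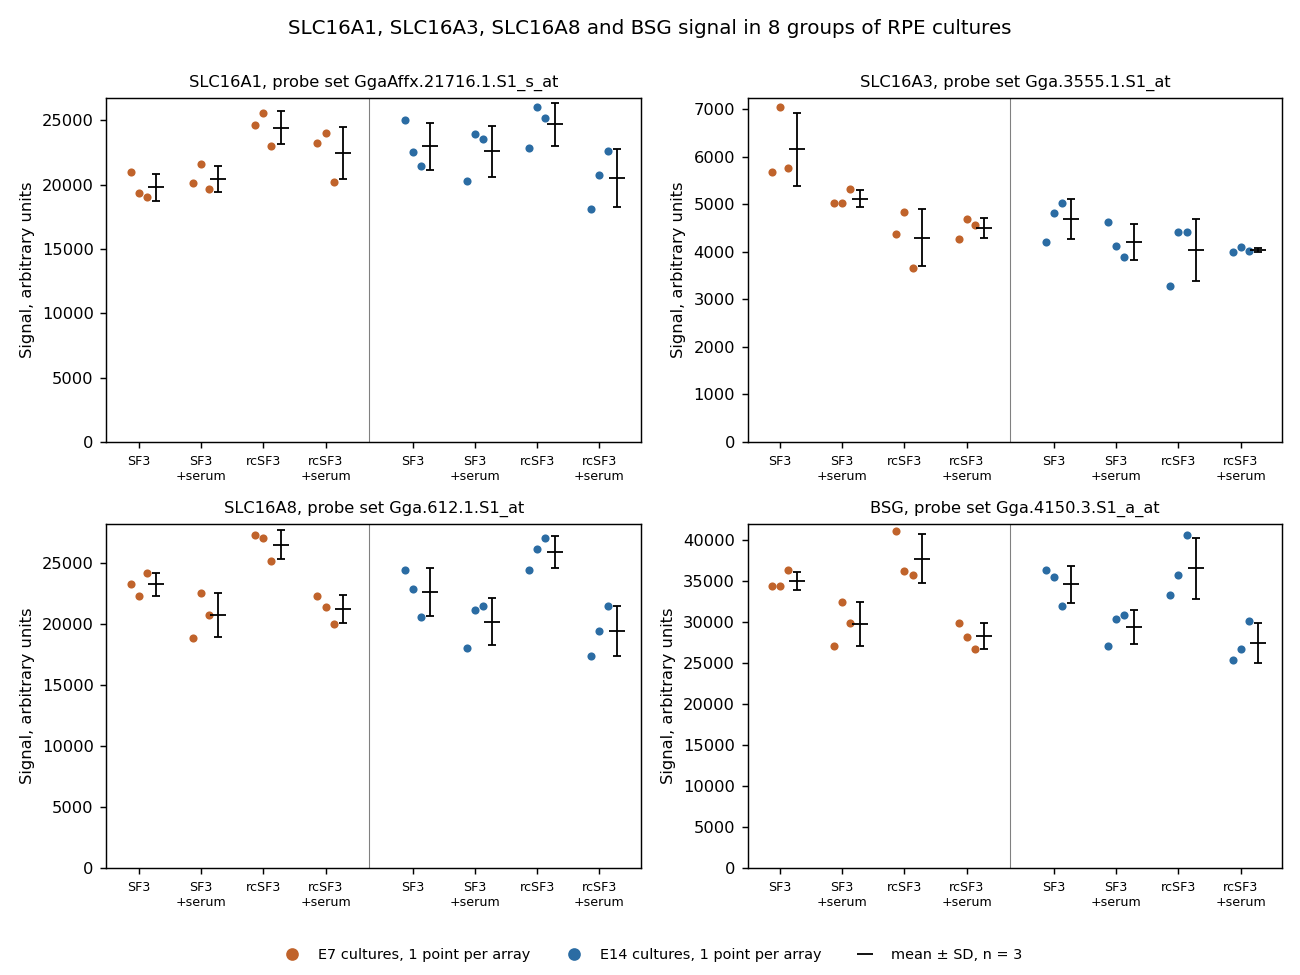
Signal (vertical axis from 0, arbitrary units) of 1 probe set each of SLC16A1, SLC16A3, SLC16A8 and BSG in the 4 media at E7 (orange) and E14 (blue), 1 point per array, with the group mean and SD (n = 3) in black. SLC16A3 is highest in E7 SF3 at 6162 ± 773, and the SLC16A8 and BSG points with serum lie below those without, except where single SLC16A8 arrays in SF3 overlap.

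The size of the serum differences in SLC16A8 and BSG was close to that of other bright probe sets. Among the 127 probe sets with a mean signal of at least 20000, the median difference with serum was -0.28 in SF3 and -0.30 in rcSF3 at E7, and -0.20 and -0.31 at E14. Of these probe sets, 80.3%, 78.0%, 47.2% and 76.4% were called in those 4 comparisons. Their 25th percentile with serum in rcSF3 was -0.37 at E7 and -0.36 at E14. Gga.4150.3.S1_a_at at both ages (-0.41 each) and SLC16A8 at E14 (-0.42) lay below it. In SF3 at E7, SLC16A8 (-0.17) lay above the 75th percentile (-0.20). After quantile normalization, which gives all arrays one distribution of signals, Gga.4150.3.S1_a_at differed with serum in rcSF3 by -0.04 (adjusted p = 0.45) at E7 and -0.03 (adjusted p = 0.65) at E14. Gga.4150.2.S1_a_at then gave 0.01 (adjusted p = 0.81) and 0.05 (adjusted p = 0.4), with the sign turned. SLC16A8 gave -0.07 (adjusted p = 0.27) and -0.21 (adjusted p = 0.014), so that its E14 call alone remained. The spans of the 8 group means went from 0.46 to 0.07 for Gga.4150.3.S1_a_at and from 0.45 to 0.23 for SLC16A8. Gga.4150.3.S1_a_at read 25389 to 41092, near the highest signals of the arrays (32454 to 48064). Quantile normalization narrows the spans of such top ranks whatever their source, so it cannot decide the source, which was not tested.

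The log2 ratio of the 3' to the 5' actin control probe sets also moved with serum. Its group means were 0.752 and 0.629 at E7 and 0.753 and 0.687 at E14 without serum. With serum they were 0.371, 0.266, 0.396 and 0.322 in the same order of media. The same ratio for the GAPDH controls did not fall with serum. Its group means were -0.139 and -0.150 at E7 and -0.128 and -0.111 at E14 without serum. With serum they were -0.094, -0.025, -0.127 and -0.073. The part of the actin shift in the values of SLC16A8 and BSG was not tested. The span of SLC16A9 was 2.53 before and 2.61 after quantile normalization on GgaAffx.12447.1.S1_at. That of SLC16A12 was 1.25 and 1.27 on GgaAffx.21935.1.S1_at.

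**Figure D5:**
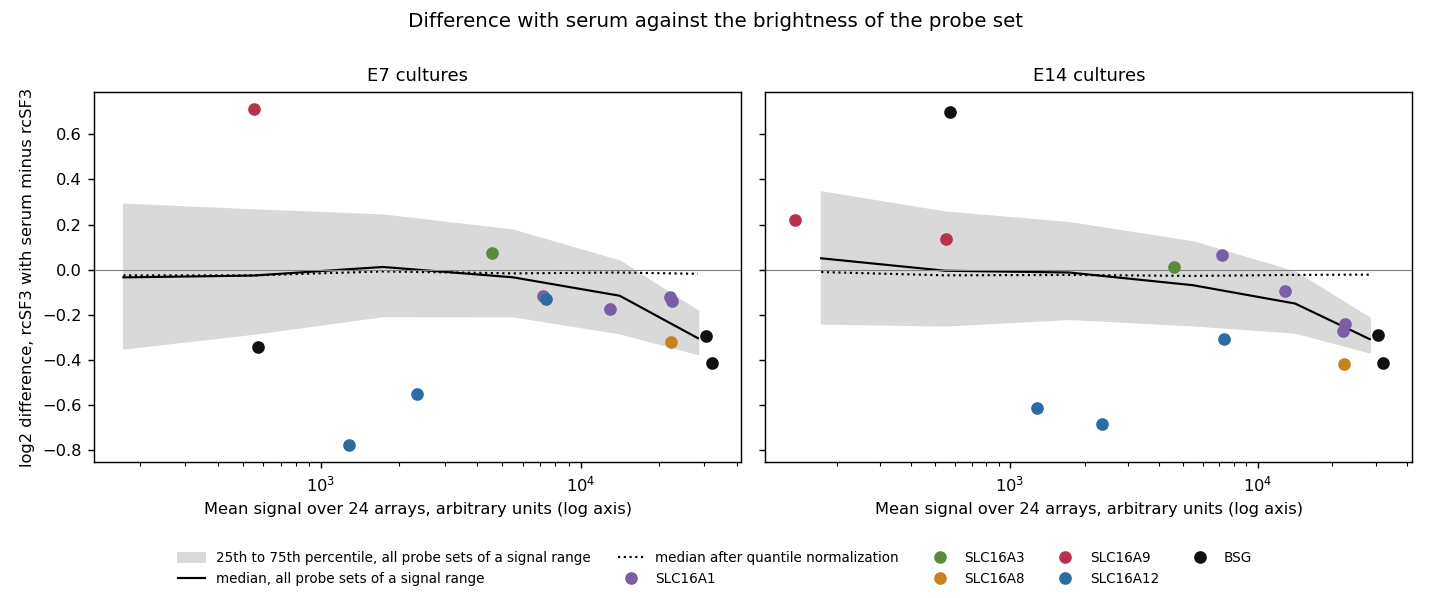
Log2 difference of rcSF3 with serum minus rcSF3 (vertical axis) against the mean signal over 24 arrays (horizontal log axis) at E7 and E14, with the members as colored points and, for all probe sets, the median (line), the middle range from the 25th to the 75th percentile (grey) and the median after quantile normalization (dotted). The line falls to -0.30 and -0.31 for the brightest probe sets, where the bright BSG, SLC16A8 and part of the SLC16A1 points lie. SLC16A9, SLC16A12 and the dim BSG probe set Gga.4150.7.A1_a_at (0.70 at E14) lie at lower signals.

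SLC16A1 lay in the same range of brightness on GgaAffx.13241.1.S1_at and GgaAffx.21716.1.S1_s_at, with mean signals of 22583 and 22129. GgaAffx.1123.1.S1_s_at and GgaAffx.13241.2.S1_s_at were dimmer, at 12932 and 7163. For serum in rcSF3 at E14 the dimmer ones gave -0.10 (adjusted p = 0.62) and 0.07 (adjusted p = 0.81), not called. When serum was added to rcSF3 at E14, GgaAffx.13241.1.S1_at and GgaAffx.21716.1.S1_s_at fell by 0.24 (SE 0.08, adjusted p = 0.032) and by 0.27 (SE 0.09, adjusted p = 0.04) on the log2 scale, without overlap. After quantile normalization the values were -0.00024 (adjusted p = 1) and -0.05 (adjusted p = 0.58). Both calls were also lost without replicate 2 or 3 of rcSF3 or replicate 1 or 2 of rcSF3 with serum (adjusted p up to 0.14 and 0.17). For serum in SF3 at E7 the order was the reverse, since neither was called as deposited and both were after quantile normalization, at 0.21 (adjusted p = 0.013) and 0.23 (adjusted p = 0.022).

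Over all 8 groups the lactate carriers held narrower ranges than SLC16A9, and most neighbours in the order of their means overlapped. For SLC16A1 on GgaAffx.21716.1.S1_s_at the means (± SD, n = 3 each) were 19784 ± 1051 in E7 SF3, 20439 ± 1017 in E7 SF3 with serum, 20496 ± 2250.2 in E14 rcSF3 with serum, 22496 ± 2019 in E7 rcSF3 with serum, 22591 ± 2009 in E14 SF3 with serum, 23002 ± 1821 in E14 SF3, 24420.0 ± 1291 in E7 rcSF3 and 24692 ± 1646 in E14 rcSF3. No pair of neighbours in that order was separate. For SLC16A3 they were 4039 ± 662 in E14 rcSF3, 4041 ± 49.0 in E14 rcSF3 with serum, 4213 ± 373 in E14 SF3 with serum, 4299 ± 598 in E7 rcSF3, 4506 ± 217 in E7 rcSF3 with serum, 4689 ± 422 in E14 SF3, 5124 ± 171 in E7 SF3 with serum and 6162 ± 773 in E7 SF3. There E7 in SF3 was the one group apart from its neighbour.

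For SLC16A8 the order was 19436 ± 2016 in E14 rcSF3 with serum, 20217 ± 1894 in E14 SF3 with serum, 20735 ± 1821 in E7 SF3 with serum, 21228 ± 1156 in E7 rcSF3 with serum, 22658 ± 1957 in E14 SF3, 23267 ± 932 in E7 SF3, 25904 ± 1325 in E14 rcSF3 and 26519.7 ± 1186 in E7 rcSF3. Only E7 in SF3 and E14 in rcSF3 were neighbours without overlap. For BSG on Gga.4150.3.S1_a_at it was 27404 ± 2455 in E14 rcSF3 with serum, 28252 ± 1616 in E7 rcSF3 with serum, 29399 ± 2068 in E14 SF3 with serum, 29733 ± 2690.4 in E7 SF3 with serum, 34549 ± 2292 in E14 SF3, 34972 ± 1100.2 in E7 SF3, 36483 ± 3711 in E14 rcSF3 and 37646 ± 2991 in E7 rcSF3, with every neighbouring pair overlapping. For SLC16A12 on GgaAffx.21935.1.S1_at the means were 1418 ± 211 in E7 SF3 with serum, 1838 ± 191 in E14 rcSF3 with serum, 1840.3 ± 108 in E14 SF3 with serum, 2273 ± 285 in E7 rcSF3 with serum, 2676 ± 348 in E7 SF3, 2947 ± 277 in E14 rcSF3, 3330.3 ± 439 in E7 rcSF3 and 3372 ± 415 in E14 SF3. E14 in SF3 with serum and E7 in rcSF3 with serum were the neighbours without overlap.

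The third BSG probe set, Gga.4150.7.A1_a_at, was far dimmer than the others and did not follow them. It read 328, 550.4 and 635 in E14 rcSF3 and 667, 1038 and 708 in E14 rcSF3 with serum, a difference of 0.70 (SE 0.22, adjusted p = 0.029) upward and without overlap. E14 also exceeded E7 in rcSF3 with serum, by 0.65 (SE 0.19, adjusted p = 0.021), with the E7 arrays at 637, 462 and 432. The first call was lost without rcSF3 replicate 1 or rcSF3 with serum replicate 2 (adjusted p up to 0.13). The second was lost without rcSF3 with serum replicate 2 of either age or replicate 3 of E7 (up to 0.15). Its other differences between media lay between -0.34 and 0.54 and were not called.

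Between the ages SLC16A9 was called in all 4 media on GgaAffx.12447.1.S1_at, and every other member probe set in fewer. Its second probe set, GgaAffx.2005.1.S1_s_at, was called in SF3 with serum (1.72) and in rcSF3 (1.30). It was kept for comparisons between ages through its E14 mean alone, so these calls give no separate support. That probe set was not called in SF3 (0.41, adjusted p = 0.26) or in rcSF3 with serum (0.74, adjusted p = 0.062). E14 exceeded E7 for 3 of 14 probe sets in SF3, with 1 lower, against 35.8% of all probe sets called, and for 3 in SF3 with serum (28.9%). In rcSF3 the 2 called were those of SLC16A9 (23.5%), and in rcSF3 with serum 2 were higher and 1 lower (18.8%). SLC16A12 was higher at E14 in SF3, by 0.33 (SE 0.07, adjusted p = 0.00052) on Gga.14029.1.S1_at and 0.33 (SE 0.13, adjusted p = 0.044) on GgaAffx.21935.1.S1_at, and in SF3 with serum by 0.38 (SE 0.13, adjusted p = 0.025) on the latter. In rcSF3 with serum Gga.14029.1.S1_at was lower at E14, at -0.21 (SE 0.07, adjusted p = 0.037).

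Among these SLC16A12 calls, that of Gga.14029.1.S1_at in SF3 held in all 12 other settings. That of GgaAffx.21935.1.S1_at in SF3 was lost without replicate 1 or 3 of either age (adjusted p up to 0.18), and that in SF3 with serum without replicate 2 or 3 of either age (up to 0.13). The one in SF3 was also lost with quantile normalization, no filter and the unmoderated analysis of variance. The call in rcSF3 with serum was lost without any array of the 2 groups but E7 replicate 3 (up to 0.17). SLC16A1, SLC16A8 and the bright BSG probe sets had no call between the ages in any medium, and their differences there lay between -0.42 and 0.44. With the replicate number as a block, SLC16A1 was called in SF3 on GgaAffx.21716.1.S1_s_at, at 0.22 (adjusted p = 0.047). Whether same-numbered arrays of the 2 ages deviated together was not examined.

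Genes around the transporters were followed through 4 lists of metabolism, transport and partner genes. Lactate and pyruvate metabolism, with 16 of 23 genes tested, had 5 up and 1 down with rcSF3 at E7, and 1 up and 0 down at E14, beside the 27.5% and 9.86% of all probe sets called. GPT2, which interconverts pyruvate and alanine, rose by 1.28 (SE 0.26, adjusted p = 0.0019) at E7, and ME1, the cytosolic malic enzyme that makes pyruvate, by 0.67 (SE 0.08, adjusted p = 1.4e-05). PDK1, an inhibitory kinase of pyruvate dehydrogenase, rose by 0.42 (SE 0.08, adjusted p = 0.0017). With serum in SF3 6 rose and 3 fell at E7, and 5 and 3 at E14 (backgrounds 39.2% and 24.3%). LDHA, which converts pyruvate to lactate, was among those that fell, at -0.40 (SE 0.05, adjusted p = 5.8e-05) and -0.24 (SE 0.07, adjusted p = 0.024). PDK3, a kinase of the same family as PDK1, fell too, at -0.65 (SE 0.08, adjusted p = 1.6e-05) and -0.64 (SE 0.09, adjusted p = 0.00016). LDHA is a bright probe set, within the range in which most signals were lower with serum. At E7 it lay below the 25th percentile of the bright probe sets (-0.34). At E14 it lay between their 25th and 75th percentiles (-0.26 and -0.13). The part of brightness in its fall was not tested.

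Between the ages LDHB, the lactate dehydrogenase subunit typical of tissues that use lactate, was higher at E14 in SF3 by 0.36 (SE 0.08, adjusted p = 0.0013), and MPC2, a subunit of the mitochondrial pyruvate carrier, by 0.66 (SE 0.12, adjusted p = 0.00024). In that comparison 5 of the 16 genes tested were higher and 2 lower, beside 35.8% of all probe sets. LDHB and MPC2 were also called higher at E14 in the other 3 media.

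Genes of proton and bicarbonate transport, 11 of 18 tested, had 4 up and 1 down with rcSF3 at E7 (background 27.5%). SLC4A7, a sodium bicarbonate cotransporter, rose by 1.07 (SE 0.09, adjusted p = 7e-07) there, and CA14, a membrane carbonic anhydrase, by 0.94 (SE 0.17, adjusted p = 0.00089). Serum in SF3 raised 4 and lowered 3 at E7 (background 39.2%), with CA14 at 2.87 (SE 0.17, adjusted p = 8e-08) and SLC4A2, an anion exchanger, at 1.69 (SE 0.12, adjusted p = 2.2e-07). At E14 serum raised 2 and lowered 3 (background 24.3%), with 0.83 (SE 0.21, adjusted p = 0.012) and 1.07 (SE 0.11, adjusted p = 1.9e-05) for the same genes. CA2, the soluble carbonic anhydrase, fell with serum at both ages, at -0.49 (SE 0.07, adjusted p = 5.1e-05) and -0.35 (SE 0.07, adjusted p = 0.0026). It too is a bright probe set, but both values lay below the 25th percentile of such probe sets (-0.34 and -0.26). The part of brightness in its fall was not tested.

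Genes of ketone body, carnitine and creatine handling, 12 of 17 tested, had 5 up and 4 down with rcSF3 at E7 and 3 up and 1 down at E14 (backgrounds 27.5% and 9.86%). CPT1A, the carnitine acyltransferase of the outer mitochondrial membrane, rose by 0.55 (SE 0.19, adjusted p = 0.041) and 0.74 (SE 0.16, adjusted p = 0.0078) at the 2 ages, and OXCT1, which activates ketone bodies, was lower at E7 at -0.62 (SE 0.10, adjusted p = 0.00024). Serum raised 3 and lowered 2 at E7, and raised 3 and lowered 1 at E14, beside 39.2% and 24.3% of all probe sets. SLC6A8, the sodium-coupled creatine transporter, rose with serum by 0.99 (SE 0.10, adjusted p = 4.7e-06) at E7 and 0.99 (SE 0.12, adjusted p = 5.3e-05) at E14, where SLC16A12 fell. With rcSF3 it was lower, at -0.41 (SE 0.10, adjusted p = 0.0056) and -0.49 (SE 0.12, adjusted p = 0.017).

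Other members of the transporter family mostly had signals too low to test. Of 11 further SLC16A and sodium-coupled monocarboxylate transporter genes 9 had a probe set by symbol, and SLC16A6 and SLC16A13 alone were bright enough to test at E14. SLC16A13 was called once, higher when serum was added to rcSF3 at E7 by 0.90 (SE 0.26, adjusted p = 0.018). Of the basigin relatives, EMB (embigin) was below the limit, and NPTN (neuroplastin) was lower at E14 with rcSF3 at -0.28 (SE 0.07, adjusted p = 0.028) and with serum at -0.37 (SE 0.07, adjusted p = 0.0022), and higher at E14 than at E7 in SF3 by 0.38 (SE 0.08, adjusted p = 0.00038).

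Among 5725 probe sets of other genes whose 8 group means spanned at least 1 log2 unit, those most like SLC16A9 over the 8 groups were ATG7, SLC2A11 and CDK8, with Pearson correlations of 0.983, 0.982 and 0.982 on log2 group means. For SLC16A12 they were LCA5L, PRMT1 and MOBP, at 0.985, 0.976 and 0.975. All genes share the same 24 arrays, so these are descriptions of the 8 means.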

How the data were processed

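RNA of cultured chick RPE was labelled and hybridised to Affymetrix chicken arrays. The deposited table held 1 column of linear intensity values per array (GCOS signals), which the authors had scaled so that the mean of each array, trimmed by 2% at either end, met one target (500.115 to 500.13 here). The 96 control probe sets were left out. Platform annotation, which can be old, gave 27168 probe sets 1 gene symbol, 177 several and 11094 none, and only the first kind was named.

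Signals were taken to log2 and fitted with limma 3.58.1 in R 4.3.3 (lmFit, and eBayes with a trend), over the 12 arrays of 1 age for media (8 residual degrees of freedom) and over all 24 for age and its interactions (16). Probe sets with a mean signal of at least 100 were kept (18663 at E7, 18815 at E14, 19519 at either age), p-values were adjusted over them by Benjamini-Hochberg, and the threshold was 0.05. The code was first tested on simulated data. Figures used matplotlib 3.10.9.

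The members and gene lists were chosen with earlier results of these data known. All member probe sets were reported, and from each list up to 4 genes per comparison could be named, those with the lowest p past the threshold and groups that did not overlap. LDHA and CA14 with serum at E14, LDHB between the ages and CPT1A with rcSF3 at E7 fell outside that rule and were added after their values were seen. The 3 genes most like SLC16A9 and SLC16A12 were those with the highest Pearson correlation over 8 group means. Each member probe set was kept separate. For each listed gene, the values are those of a single kept probe set, although some genes, such as NPTN and OXCT1, had several. The other probe sets of those genes were not reported. Levels of different probe sets were compared only as brighter or dimmer.

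Group labels share replicate numbers, and the filters pooled into one repeat were plated together, but no source says that a number marks one day across groups. Same-numbered arrays were therefore compared by the correlations of their deviations. Of 12 pairs of media within an age, 3 had all of these above 0.1 (SF3 with rcSF3 at E7 and at E14, and both serum media at E14). For comparisons of those media, block fits are given where they changed a call. In other comparisons the replicate block is given only as an alternative setting, without such pairing to rest on. Alternatives were quantile normalization, no filter or one at 200, signals under 100 raised to 100, an unmoderated analysis of variance, 1 fit over 24 arrays, the replicate block, and leaving out each array. A block within each serum state and centring on bright probe sets were added after seeing the data.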

Additional observations from a re-analysis of the deposited data

Results flagged for a closer look

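In 5 results the response to one stimulus differed between groups by a test of the difference itself, an interaction term in limma. For SLC16A9 on GgaAffx.12447.1.S1_at, the response to rcSF3 at E14 was smaller with serum than without, with an interaction of -1.41 (SE 0.19, adjusted p = 0.0085), and on GgaAffx.2005.1.S1_s_at it was -1.64 (SE 0.33, adjusted p = 0.042). The response of GgaAffx.12447.1.S1_at to rcSF3 with serum was smaller at E14 than at E7 by -1.08 (SE 0.19, adjusted p = 0.0059). Its response to serum in SF3 was larger at E14, at 0.83 (SE 0.19, adjusted p = 0.019). SLC16A12 on Gga.14029.1.S1_at gave 0.22 with rcSF3 at E7 and -0.15, not called, at E14. The difference between the ages was -0.36 (SE 0.10, adjusted p = 0.026), a call lost in 8 of 19 other settings. The SLC16A9 results all share the E14 arrays in SF3 with serum, which enter that for serum with the opposite sign. Those for rcSF3 also share the E14 arrays in rcSF3 with serum.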

How the results depend on the processing

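Of 102 differences of single members that were called or reached 0.25 on the log2 scale, 56 were called, 25 of them under every alternative and 31 not under all. Of the 46 others, 16 passed the threshold somewhere. With 3 pooled repeats a group, precision is limited by their number, and 1 of the 15 probe sets was too dim to test at either age. Among the 25 were the rises of SLC16A9 with rcSF3 and with serum, the falls of SLC16A12 with serum in SF3 on GgaAffx.21935.1.S1_at and Gga.18752.1.S1_s_at, and the fall of SLC16A3 with rcSF3 at E7. Several calls described above as lost without certain arrays were also lost in other settings, such as no filter or the unmoderated analysis of variance. The causes of the changes below were not tested.

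Quantile normalization lowered the members called for serum added to rcSF3 from 6 to 3 at E7 and from 9 to 5 at E14. Over all probe sets the calls went from 5918 to 5804 and from 4399 to 4542. The sign turned for BSG on Gga.4150.2.S1_a_at (0.034 for serum in SF3 at E7, and 0.014 and 0.053 for serum in rcSF3 at E7 and E14) and on Gga.4150.3.S1_a_at (0.059 for serum in SF3 at E7). With the serum comparisons centred on bright probe sets, 3 and 2 members were called, while calls over all probe sets rose to 7361 and 6111. The E7 calls included SLC16A3, higher by 0.35 (adjusted p = 0.017) and not called as deposited. For serum in SF3 at E7, SLC16A1 was newly called on GgaAffx.13241.1.S1_at (0.27) and GgaAffx.21716.1.S1_s_at (0.30), each with adjusted p = 0.0025. There the calls over all probe sets went from 7314 to 8250. The centring moved the median of all probe sets from -0.04 to 0.22 and from -0.02 to 0.16 for serum in SF3 at E7 and E14, and from -0.03 to 0.25 and from -0.0017 to 0.29 in rcSF3. Under it Gga.4150.3.S1_a_at turned to 0.016 for serum in SF3 at E7, and SLC16A1 turned to 0.046 on GgaAffx.13241.1.S1_at and 0.016 on GgaAffx.21716.1.S1_s_at for serum in rcSF3 at E14. It also ended SLC16A12 calls for serum, in rcSF3 at E7 on GgaAffx.21935.1.S1_at (-0.27, adjusted p = 0.14) and Gga.18752.1.S1_s_at (-0.50, adjusted p = 0.056), in rcSF3 at E14 on Gga.18752.1.S1_s_at (-0.32, adjusted p = 0.15) and Gga.14029.1.S1_at (-0.019, adjusted p = 0.89), and in SF3 at E14 on Gga.14029.1.S1_at (-0.21, adjusted p = 0.094). The SLC16A8 calls in rcSF3 ended too, at E7 (-0.044, adjusted p = 0.49) and E14 (-0.13, adjusted p = 0.069), as did the calls of the bright BSG probe sets for serum, except that of Gga.4150.3.S1_a_at in rcSF3 at E7. The set used for the centring holds the bright SLC16A1, SLC16A8 and BSG probe sets themselves, so their smaller differences under it are partly built in.

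The unmoderated analysis of variance called 2 members in place of 6 for rcSF3 with serum at E7, 4 in place of 9 for serum in rcSF3 at E14, and 0 in place of 2 for the serum by rcSF3 interaction at E14. That interaction kept 1 call with no filter, with the filter at 200 and with signals under 100 raised to 100. The filter at 200, which removes the dim SLC16A9 probe set, left 1 call for rcSF3 at E14 and 1 for E14 against E7 in rcSF3. For age by rcSF3, without serum 0 were called with no filter and 2 with raised signals, against 1, and with serum 2 were called with the filter at 200 and 2 with raised signals, against 1. For serum between the ages, raised signals gave 2 in place of 1. Calls over all probe sets under these settings, and with 1 array left out, are not given here, so these counts have no background.

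With the replicate number as a block, serum in SF3 at E7 gave 8 calls in place of 5 and age by serum 2 in place of 1. Over all probe sets this block moved the calls from 7314 to 7573 and from 722 to 780. For serum it added SLC16A1 on GgaAffx.1123.1.S1_s_at (adjusted p = 0.038) and GgaAffx.13241.2.S1_s_at (adjusted p = 0.043), and SLC16A3 (adjusted p = 0.034). Same-numbered arrays of SF3 and SF3 with serum at E7 did not deviate together (correlations of -0.024, -0.074 and 0.016). Pairs between the ages were not examined. Between the ages the block over all media added SLC16A1 on GgaAffx.21716.1.S1_s_at in SF3 (adjusted p = 0.047). It also added SLC16A3 in SF3 with serum (adjusted p = 0.044) and SLC16A9 on GgaAffx.2005.1.S1_s_at in rcSF3 with serum (adjusted p = 0.046). Blocking within each serum state, which was added after seeing the data as was the centring, gave 8 in place of 6 for rcSF3 at E7, 2 in place of 1 for age by rcSF3 without serum, and 4 in place of 1 with serum. Over all probe sets that block moved the calls for rcSF3 at E7 from 5129 to 5907. It moved those for the interaction from 418 to 988 at E7 and from 119 to 498 at E14, and for age by rcSF3 with serum from 309 to 941. In the other comparisons the count of members called under the block stayed within 1.5 times.

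Leaving out 1 array at a time gave 4 to 7 calls (6 with all arrays) for rcSF3 at E7, 2 to 7 (6) with serum, 4 to 6 (5) for serum in SF3 at E7, 5 to 6 (5) at E14, 6 to 7 (6) for serum in rcSF3 at E7 and 5 to 8 (9) at E14. The E14 interaction gave 1 to 2 (2), and the E7 interaction and rcSF3 with serum at E14 gave 0 throughout, while rcSF3 at E14 gave 2 throughout. E14 against E7 gave 2 to 5 (4) in SF3, 2 to 5 (3) in SF3 with serum, 2 to 3 (2) in rcSF3 and 1 to 3 (3) in rcSF3 with serum. The differences between ages gave 0 to 2 (1) for rcSF3 without serum, 1 to 2 (1) with serum and 1 to 2 (1) for serum.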
